A study of Mus musculus with 20 samples.

Results

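Spleens of 5 Eµ-PRMT5 mice were compared with spleens of 4 Eµ-TCL1 mice by droplet single-cell RNA-seq, separately in B cells, T cells and myeloid cells. The labels give strain C57BL/6N for all mice, although the study's methods describe C57BL/6 J as the background of the Eµ-TCL1 mice used for breeding. Eµ-PRMT5 mice carried Eµ-hPRMT5, a human PRMT5 cDNA under an immunoglobulin VH promoter and IgH enhancer, and Eµ-TCL1 mice carried Eµ-hTCL1, so that the transgene was directed to B cells in each group. Spleens were taken at early removal criteria (ERC), the stage of illness at which a mouse has to be killed, and ages were not given for these spleens in the sources used here. The study reported a longer median survival for Eµ-PRMT5 than for Eµ-TCL1 mice in its survival cohorts. Age may therefore have been confounded with genotype in every comparison below, and its part was not tested. The title of Eµ-PRMT5 spleen 3 names line L25 with an ID that the study's methods give to a founder mouse, and the line of the other 4 is not given in the sources used here. The study states that it chose line L25 for full characterization. Unselected live cells were loaded, and each mouse gave 1 library. No spleen without a transgene was analysed here, so every difference below is between the models and neither is a healthy reference. The members were chosen by UMIs (unique molecular identifiers, counted molecules) of lineage genes and numbered 35213 of the 45394 cells kept in these 9 spleens; all 20 libraries of the series held 97181 kept cells. They comprised 15718 B cells (at least 3 Cd79a and Cd79b UMIs, no Cd3d, Cd3e or Cd3g UMI and under 20 Jchain UMIs), 15556 T cells (at least 2 CD3 UMIs and at most 1 Cd79 UMI) and 3939 myeloid cells (at least 5 Lyz2 UMIs, no CD3 UMI and at most 1 Cd79 UMI).

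PRMT5 symmetrically dimethylates arginines on histones and on splicing and RNA-binding proteins, and it is raised in several lymphoid cancers. TCL1 is a co-activator of the kinase AKT, and mice expressing it in B cells develop a leukemia of mature B cells that serves as a model of chronic lymphocytic leukemia (CLL). The T cells and myeloid cells of such a spleen are not part of that B cell leukemia. They can be expanded themselves, and the study reported T cell and myeloid expansions in the blood of its mice. Immediate early genes such as Fos and Jun are transcribed within minutes of receptor signalling or cell stress, and heat shock genes are transcribed when proteins misfold.

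The classes were checked against markers that the gates did not use. Summed T cell markers such as Trac, Lck and Thy1 took 2347 to 3510 CPM (a gene's UMIs scaled to a fixed total per class and library) in T cells, 164 to 779 CPM in B cells and at most 79.5 CPM in myeloid cells. Summed B cell markers took 7387 to 26046 CPM in B cells, lowest in Eµ-PRMT5 spleen 4, and 159 to 1599 CPM in T cells, but most of either sum was Cd74, the MHC class II chaperone, which other antigen-presenting cells also express. Without Cd74 the other 7 markers, such as Ighm, Igkc and Pax5, took 2542 to 5686 CPM in B cells, 34.2 to 449 CPM in T cells, highest in Eµ-PRMT5 spleen 4, and 38.5 to 116 CPM in myeloid cells. Neutrophil genes such as S100a8, S100a9 and Camp took 100066 to 239980 CPM of the myeloid class in 8 spleens and 8079 CPM in Eµ-PRMT5 spleen 5. The 36 myeloid cells of that spleen also held 15213 CPM of Cd74, with Ms4a1 and Pax5 at 0, and 308 CPM of dendritic cell markers, against at most 25.2 CPM of the latter in the other spleens, so the label myeloid is least secure for them. The same neutrophil genes took 4.13 to 7951 CPM in T cells and 33.3 to 6111 CPM in B cells. In T cells of Eµ-TCL1 spleens 1 and 3 and Eµ-PRMT5 spleen 4 they took 7951, 4156 and 6990 CPM. Those values exceed the T cell marker sums of any spleen.

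Several libraries stood apart. Eµ-PRMT5 spleen 4 gave 128 T cells, in which at most 26.1% of the RNA could be free RNA, as judged from Igkc, Ighm, Cd74 and H2-Aa against near-empty droplets, against at most 6.97% in the T cells of any other spleen. Its B cells held a median of 16126 UMIs, against 3951 to 7690 elsewhere. In that spleen 59.1% of cells with Cd79 UMIs held Cd3g but neither Cd3d nor Cd3e and so failed the B cell gate, against 33.1%, 27.2% and 21.4% in Eµ-TCL1 spleens 1, 4 and 3 and at most 3.49% in the others. Xist and Y-linked transcripts marked 4 of the 5 Eµ-PRMT5 mice as female and 3 of the 4 Eµ-TCL1 mice as male, so that sex was partly confounded with genotype. Libraries held 9348094 to 72440894 UMIs, and no pair shared more than 1.28% of cell barcodes. The transgenes are human, so mouse transcripts do not check the labels. Mouse Prmt5 in B cells lay at 29.9, 29.6, 28.4, 51.7 and 19.05 CPM in the Eµ-PRMT5 mice, while the Eµ-TCL1 mice had 20.9, 22.7, 18.3 and 20.5 CPM (log2 difference 0.63 ± 0.27, adjusted p = 0.317, edgeR), and mouse Tcl1 passed the low-count filter in no class.

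How the classes made up the spleens was compared first. B cells made up 40.3%, 28.0%, 33.7%, 19.2% and 7.73% of kept cells in Eµ-PRMT5 spleens 1 to 5 and 14.3%, 80.1%, 28.2% and 45.9% in Eµ-TCL1 spleens 1 to 4. T cells made up 34.9%, 49.0%, 42.5%, 2.78% and 82.1% in the former and 37.9%, 12.7%, 35.4% and 20.1% in the latter. The groups overlapped for each class, and each extreme came from a single mouse. The mean myeloid share was 9.33% ± 10.2 (SD, n = 5) in Eµ-PRMT5 and 8.76% ± 6.83 (n = 4) in Eµ-TCL1 spleens. None of 13 shares tested differed by a two-sided exact permutation test over libraries (lowest p = 0.127, adjusted p = 0.653, where 0.0159 is the smallest p the design allows). With Cd3g left out of the gates, the B cell share was 54.9% in Eµ-PRMT5 spleen 4 and 24.3%, 37.6% and 64.3% in Eµ-TCL1 spleens 1, 3 and 4.

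**Figure D1:**
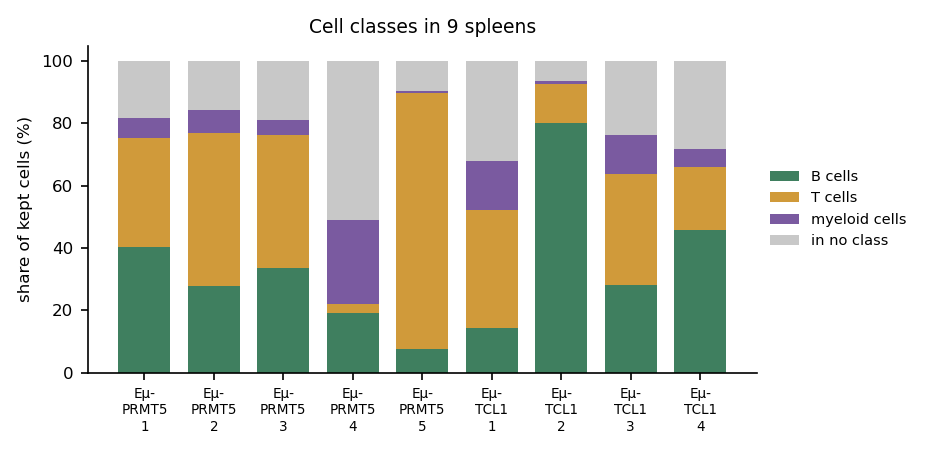
Share of kept cells (%, vertical axis) in each class for the 5 Eµ-PRMT5 and 4 Eµ-TCL1 spleens, stacked to the whole. B cells range from 7.73% to 80.1% and T cells from 2.78% to 82.1%, and the genotypes overlap in every class.

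Within T cells, the largest difference of means was in Ccl5, a chemokine of effector and memory T cells. Ccl5 UMIs were found in 78.9% ± 19.02 (SD, n = 5) of Eµ-PRMT5 and 94.5% ± 6.91 (n = 4) of Eµ-TCL1 T cells after each cell was thinned to 1500 UMIs (81.8% and 96.2% unthinned), and in at most 11.7% of B cells of any spleen; this is the share with the lowest p given above. Eµ-PRMT5 spleen 1 was at 47.9%, and the difference of -15.6 percentage points was -7.86 without it. Cd8b1, a chain of the CD8 co-receptor, was found in 35.4% ± 11.9 and 45.7% ± 15.5 of T cells, thinned (adjusted p = 0.653, exact permutation test). Cd4 was found in 6.51% ± 4.52 and 5.36% ± 9.11 of T cells (adjusted p = 0.984, exact permutation test), and Foxp3, the transcription factor of regulatory T cells, in 0.731% ± 0.744 and 0.119% ± 0.102 (adjusted p = 0.653). Among myeloid cells Ltf, a secondary granule protein of neutrophils, was found in 31.05% ± 20.1 and 48.1% ± 12.6 (adjusted p = 0.653, exact permutation test), against at most 1.88% of B cells.

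The next question was whether gene expression within each class differed between the models. In B cells 1 of 10864 genes was called by edgeR's quasi-likelihood test at an adjusted p below 0.05, which is 0.0092% of genes. In T cells 0 of 11039 genes (0%) and in myeloid cells 0 of 8848 genes (0%) were called. At an unadjusted p below 0.05 there were 1595, 802 and 232 genes in B, T and myeloid cells, and DESeq2 called 444, 72 and 2. The median log2 change of all genes was 0.04, -0.00 and 0.02. With Eµ-PRMT5 spleens 4 and 5 both left out, a setting chosen after seeing the data, 904 genes were called in B cells and 22 in T cells. With sex as a covariate 0 genes were called in B cells and 4 in T cells. Leaving out 1 library gave 0 to 5 calls in B cells, with 5 without Eµ-PRMT5 spleen 4, and 0 to 4 in T cells, with 4 without Eµ-PRMT5 spleen 5. The classes came from the same 9 spleens and are not independent of each other.

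In B cells the called gene was Aig1, androgen-induced 1, a lipid hydrolase. Aig1 lay at 46.4, 42.1, 44.2, 30.2 and 36.3 CPM (scaled by TMM, edgeR's trimmed mean normalization, here and for all single genes) in Eµ-PRMT5 spleens 1 to 5 and at 114, 128, 129 and 173 CPM in Eµ-TCL1 spleens 1 to 4. The groups did not overlap, and Aig1 fell by 1.77 ± 0.20 (SE) on the log2 scale (adjusted p = 0.0440, edgeR). Its log2 difference was 0.21 ± 0.38 in T cells and 0.26 ± 0.64 in myeloid cells, neither called. The call was lost when sex was a covariate (adjusted p = 0.845, edgeR) and when any library other than Eµ-PRMT5 spleen 4 was left out, with log2 values from -1.86 to -1.66. It was also lost with a 5% mitochondrial limit, a minimum of 3000 UMIs or a block for replicate number, and Aig1 was called in 12 of 24 alternative settings. Further genes with the smallest p in B cells, none called in the main edgeR fit, were higher in Eµ-PRMT5: Rab20, a small GTPase of endosomes and phagosomes, had a log2 difference of 2.86 ± 0.45, Grasp, a scaffold of membrane trafficking, one of 3.37 ± 0.64, and Tfrc, the transferrin receptor, one of 1.19 ± 0.21 (adjusted p = 0.183 each, edgeR). Lower values, also with adjusted p = 0.183, were found for Slc9a3r2, a scaffold of membrane transporters (-4.27 ± 0.84), Serpinb6b, a serine protease inhibitor (-2.60 ± 0.51), and Gpat3, an enzyme of triglyceride synthesis (-2.004 ± 0.392). Ppid, Prps1 and Tob1 were likewise higher and Pgpep1 and AC113595.1 lower, the last of which overlaps Apobec3 on the same strand, so that its counts are uncertain.

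In T cells the 6 higher genes of smallest p were Jun, Klf4, Rgcc, Fos, Fosb and Lrig1. The gene with the smallest p was Jun, a subunit of the AP-1 transcription factor. Jun lay at 125, 71.1, 95.1, 117 and 67.1 CPM in Eµ-PRMT5 T cells and at 20.5, 17.3, 29.7 and 19.9 CPM in Eµ-TCL1 T cells. Jun of every Eµ-PRMT5 spleen was above every Eµ-TCL1 spleen, by 2.11 ± 0.25 on the log2 scale (adjusted p = 0.0735, edgeR, so not called; unadjusted p = 6.66e-06). Fos, its AP-1 partner, lay at 280, 64.9, 119, 89.5 and 247 CPM against 39.0, 27.2, 18.2 and 34.5 CPM, without overlap (log2 difference 2.44 ± 0.47). Klf4, a transcription factor that restrains T cell division, lay at 104, 36.9, 53.5, 33.7 and 40.3 CPM against 3.87, 9.62, 5.45 and 10.4 CPM (log2 difference 2.94 ± 0.44), highest in Eµ-PRMT5 spleen 1. After thinning to 1500 UMIs, Jun UMIs were present in 6.24% to 13.5% of T cells of Eµ-PRMT5 spleens and in 2.40% to 3.22% of Eµ-TCL1 T cells. In Eµ-PRMT5 spleen 4 free RNA could account for up to 26.1% of T cell RNA, and over all libraries for up to 16.7% of Jun; Jun differed by 2.03 on the log2 scale without that spleen.

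The other genes of smallest p in T cells were of varied function. Fosb, another AP-1 subunit, had a log2 difference of 2.99 ± 0.58, Rgcc, a regulator of the cell cycle, one of 2.37 ± 0.42 and Lrig1, an antagonist of growth factor receptors, one of 3.16 ± 0.62 (adjusted p = 0.345 each, edgeR). Lrig1 had 48.1, 23.1, 33.2, 1.30 and 17.5 CPM in Eµ-PRMT5 T cells, and 1.82 to 3.49 CPM in Eµ-TCL1 T cells. Rln3, relaxin 3, a peptide hormone, lay at 2.07, 0.923, 2.93, 0 and 0.503 CPM in Eµ-PRMT5 T cells and at 62.8, 33.7, 9.49 and 46.9 CPM in Eµ-TCL1 T cells (log2 difference -4.62 ± 0.67, adjusted p = 0.158, edgeR). It had 66 UMIs in all Eµ-PRMT5 T cells against 1244 in Eµ-TCL1 T cells. Grb7, an adaptor of receptor tyrosine kinases, lay at 3.67, 1.85, 2.07, 5.19 and 0.731 CPM against 38.3, 11.9, 20.3 and 16.4 CPM (log2 difference -3.27 ± 0.53, adjusted p = 0.253). In neither gene did the groups overlap. Fam53b, Ppdpf, Plac8 and Cdpf1 had log2 differences of -1.01, -0.60, -1.06 and -0.84, none of them called in the main edgeR fit. Fam53b overlaps Fgfr2 on the same strand, and Jun overlaps Junos on the opposite strand.

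In myeloid cells no gene was near the threshold, and the lowest adjusted p was 0.999 (edgeR). Atf3, a stress-induced transcription factor of the AP-1 group, lay at 88.3, 248, 66.5, 208 and 577 CPM in Eµ-PRMT5 spleens and at 39.1, 15.7, 33.7 and 53.8 CPM in Eµ-TCL1 spleens. These did not overlap, with a log2 difference of 2.62 ± 0.60 (unadjusted p = 0.00102, edgeR), and Atf3 was 1 of the 2 genes DESeq2 called. Dnajb9, a co-chaperone of the endoplasmic reticulum, lay at 47.7, 62.9, 37.0, 49.2 and 62.1 CPM against 30.1, 21.98, 19.97 and 24.9 CPM, also without overlap (log2 difference 1.04 ± 0.23). Slc25a33, a mitochondrial pyrimidine carrier, and Gadd45b, a DNA damage response gene, had log2 differences of 1.34 ± 0.31 and 0.87 ± 0.22. Fosb lay at 6.03, 28.1, 4.68, 30.7 and 139 CPM against 1.74, 0, 0.762 and 3.06 CPM, highest in Eµ-PRMT5 spleen 5, whose myeloid class had few neutrophil transcripts. Mpo, myeloperoxidase of the azurophil granules of immature neutrophils, lay at 184, 66.2, 153, 190 and 186 CPM against 361, 537, 419 and 166 CPM (log2 difference -1.24 ± 0.36), with Eµ-TCL1 spleen 4 inside the Eµ-PRMT5 range. Of the 11 azurophil granule genes tested 10 had a negative log2 difference (median -0.45, -0.81 without Eµ-PRMT5 spleen 4, -0.06 when Eµ-TCL1 spleen 3 was left out and -0.87 with sex as a covariate). AY036118, which overlaps the ribosomal RNA gene Gm42418 on the opposite strand, Ciapin1, Gm42031, Gm8797, Ckap5 and Aes completed the genes of smallest p.

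Immediate early and AP-1 genes were the first of the gene lists, 22 genes that include Fos, Jun, Egr and Nr4a members. In B cells 21 of 22 were higher in Eµ-PRMT5, and 12 at an unadjusted p below 0.05, against 8.39% of all genes tested. In T cells 20 of 21 were higher, and 18 at that p, against 4.57% of all genes. In myeloid cells 18 of 18 were higher, and 9 at that p, against 1.93% of all genes. The median log2 difference was 1.27, 1.20 and 1.04, against medians of all genes of 0.04, -0.00 and 0.02. Groups did not overlap for 4 genes in B cells, 7 in T cells and 2 in myeloid cells, against 3.23%, 1.49% and 0.678% of all genes in that direction. No member was called by edgeR, while DESeq2 called 8 in B cells, 10 in T cells and 1 in myeloid cells. Of all genes given an adjusted p, DESeq2 called 444 of 10683, 72 of 10777 and 2 of 8832 in these classes. These are the list's members described in the same 9 spleens, not 3 separate tests. The gene lists were chosen with earlier results of these data known. The study's bulk RNA-seq of splenic CLL-like cells of these models gave the other direction, with Fos and Jun family members enriched in Eµ-TCL1 tumors. In its single-cell data, which are the data used here and not a second source, Junb was upregulated in B cell clusters enriched in Eµ-PRMT5 spleens. What sets the bulk and single-cell directions apart was not tested.

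Summed over the list, the levels of the groups did not overlap in T cells and overlapped in the other classes. T cells held 6002, 3393, 3956, 3498 and 4359 CPM in Eµ-PRMT5 spleens and 2286, 2576, 1805 and 2006 CPM in Eµ-TCL1 spleens, without overlap. B cells held 13254, 5015, 7010, 2619 and 7764 CPM against 2222, 3657, 3603 and 2816 CPM, where Eµ-PRMT5 spleen 4 lay among the Eµ-TCL1 values. Myeloid cells held 2748, 4431, 2130, 3921 and 6973 CPM against 1720, 2534, 1826 and 2955 CPM and overlapped. Without Eµ-PRMT5 spleens 4 and 5 the median log2 difference was 1.40 in B cells, 1.14 in T cells and 0.48 in myeloid cells, the last of which fell by more than 1.5 times. A single left-out library moved it to between 0.90 and 1.51 in B cells, 1.00 and 1.29 in T cells and 0.65 and 1.13 in myeloid cells. The lowest myeloid value was without Eµ-PRMT5 spleen 5. Mitochondrial transcripts, a sign of cell quality, took a median of 1.70% to 4.14% of T cell UMIs in Eµ-PRMT5 and 2.70% to 3.96% in Eµ-TCL1 spleens. In B cells their median share was 2.97%, 4.03%, 3.72%, 2.45% and 4.72% in Eµ-PRMT5 and 4.40%, 5.71%, 4.45% and 3.95% in Eµ-TCL1 spleens, so that 3 of 5 Eµ-PRMT5 libraries lay below every Eµ-TCL1 library. In myeloid cells it was 0.547% to 1.93% against 0.637% to 1.20%. The part of this share in the immediate early, heat shock and nucleolar values was not tested. The study's methods do not say which spleens were processed together. The part of tissue handling or processing batch in the same values was not tested either.

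**Figure D2:**
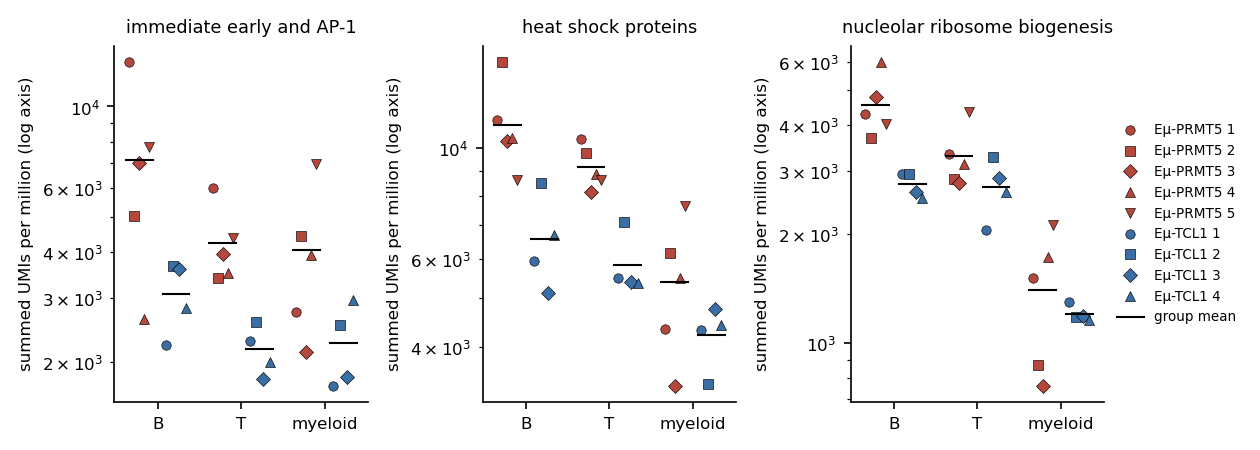
CPM (log axis) summed over 3 gene lists in B, T and myeloid cells, 1 point per spleen and a bar for each group mean. Between Eµ-PRMT5 and Eµ-TCL1 spleens, immediate early sums do not overlap in T cells, heat shock sums in B and T cells, and nucleolar sums in B cells.

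Single members of the list differed in how far the groups lay apart. Nr4a1, an orphan nuclear receptor induced by antigen receptor signalling, lay at 260, 167, 98.1, 125 and 224 CPM in Eµ-PRMT5 T cells and at 43.2, 100, 26.3 and 35.4 CPM in Eµ-TCL1 T cells (log2 difference 1.78 ± 0.43). Eµ-PRMT5 spleen 3 was just below Eµ-TCL1 spleen 2, so the groups overlapped by that pair. In B cells Nr4a1 lay at 1937, 318, 1025, 248 and 502 CPM against 157, 81.6, 145 and 107 CPM, without overlap (2.72 ± 0.62). Dusp1, a phosphatase that switches off MAP kinases, had log2 differences of 2.36 ± 0.59 in B cells, 1.79 ± 0.42 in T cells and 1.65 ± 0.58 in myeloid cells. Zfp36, which binds and destabilizes cytokine mRNAs, did not overlap in T cells, at 118 to 267 CPM against 71.6 to 110 CPM. Ier3 was the exception in T cells, at -0.63 ± 0.41, and Jund the exception in B cells, at -0.14 ± 0.34. Egr1 was at 389, 32.2, 212, 25.4 and 237 CPM against 53.1, 118, 218 and 29.7 CPM in B cells, a spread that covered both groups.

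**Figure D3:**
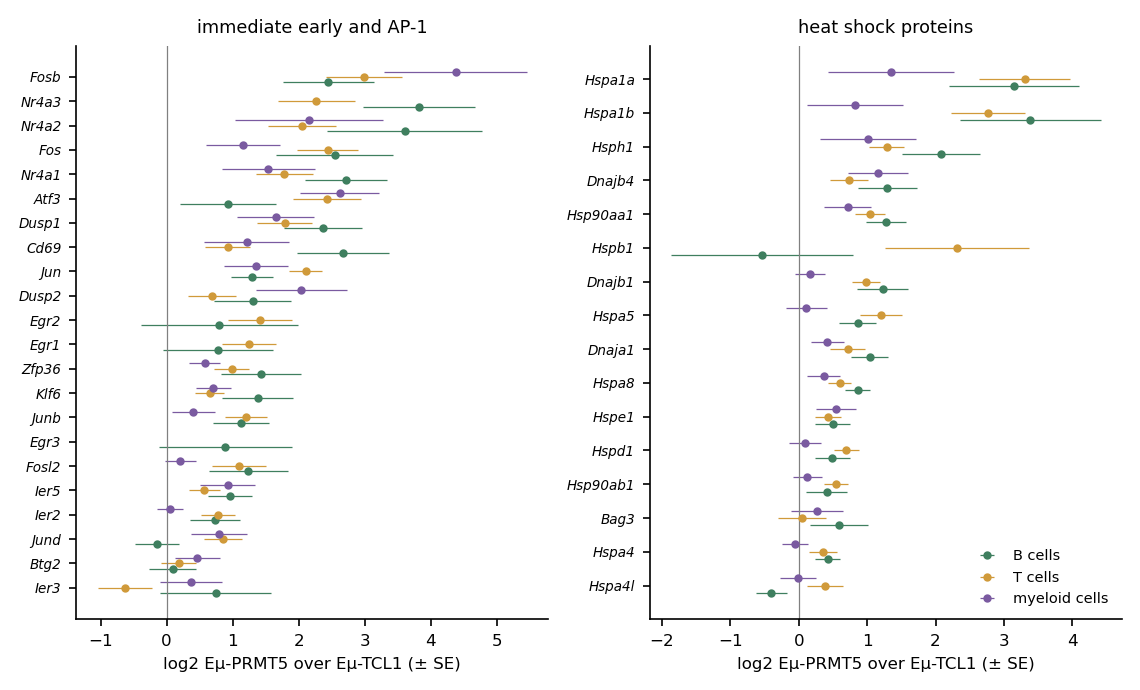
Log2 difference of Eµ-PRMT5 over Eµ-TCL1 spleens (horizontal axis, ± SE of the edgeR fit) for each tested immediate early and AP-1 gene (left) and heat shock gene (right) in B, T and myeloid cells. Of the immediate early points 21 of 22 in B cells, 20 of 21 in T cells and 18 of 18 in myeloid cells lie right of 0, and Ier3 in T cells and Jund in B cells lie left of it.

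Heat shock genes, which encode chaperones, showed the same direction in B and T cells. In B cells 14 of 16 were higher in Eµ-PRMT5 (10 at an unadjusted p below 0.05, where 8.39% of all genes were, median 0.86), in T cells 16 of 16 (12 at that p, where 4.57% were, median 0.72), and in myeloid cells 13 of 15 (1 at that p, where 1.93% were, median 0.36). The sums in T cells were 10428, 9740, 8155, 8859 and 8600 CPM in Eµ-PRMT5 and 5486, 7089, 5392 and 5370 CPM in Eµ-TCL1 spleens, without overlap, and in B cells 11364, 14862, 10305, 10443 and 8631 CPM against 5943, 8487, 5122 and 6702 CPM, also without overlap. Hspa1a, an inducible Hsp70, lay at 144, 371, 191, 134 and 23.7 CPM against 13.8, 12.7, 14.4 and 29.4 CPM in T cells, where only Eµ-PRMT5 spleen 5 reached the Eµ-TCL1 range (log2 difference 3.30 ± 0.66). In B cells Hspa1a lay at 430, 1031, 340, 60.1 and 97.0 CPM against 5.22, 65.5, 49.8 and 55.5 CPM. Hsp90aa1, an inducible Hsp90, did not overlap in either class, at 510 to 836 CPM against 253 to 413 CPM in T cells. In myeloid cells 0 of 15 heat shock genes were without overlap, where 0.678% of all genes were in the higher and 0.203% in the lower direction. Their median was 0.18 without Eµ-PRMT5 spleens 4 and 5 and 0.19 without Eµ-PRMT5 spleen 2. The difference from B cells was tested by interaction: 14 of 16 heat shock genes had a smaller log2 difference in myeloid cells than in B cells, 6 at an unadjusted p below 0.05, where 4.46% of all genes were, and none was called.

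The promoters of Fos, Jun, Atf3 and Hspa1a, 4 of the genes described above, none of them called in the main edgeR fit, are shown as RefSeq gives them for build GRCm38.p6, 250 bases before to 50 after the start, in the direction of the gene. Capitals mark a cyclic AMP response element core, TGACG or its reverse CGTCA, in Fos and Atf3, a Jun-type site TGACATCA in Jun and a heat shock unit GAANNTTC in Hspa1a and Jun.
Fos, chr12:85473640-85473939, plus strand: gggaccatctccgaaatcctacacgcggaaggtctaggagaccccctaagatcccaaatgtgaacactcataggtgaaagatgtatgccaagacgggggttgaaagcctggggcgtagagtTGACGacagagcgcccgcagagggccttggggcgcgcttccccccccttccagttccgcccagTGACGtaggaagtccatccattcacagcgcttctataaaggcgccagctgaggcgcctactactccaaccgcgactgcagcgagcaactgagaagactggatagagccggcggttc
Jun, chr4:95052173-95052472, minus strand: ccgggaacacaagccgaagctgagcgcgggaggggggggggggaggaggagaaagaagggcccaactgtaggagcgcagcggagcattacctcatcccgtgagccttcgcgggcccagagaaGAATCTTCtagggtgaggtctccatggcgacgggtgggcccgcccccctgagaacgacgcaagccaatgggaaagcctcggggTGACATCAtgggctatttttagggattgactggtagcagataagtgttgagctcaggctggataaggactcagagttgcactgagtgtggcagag
Atf3, chr1:191183284-191183583, minus strand: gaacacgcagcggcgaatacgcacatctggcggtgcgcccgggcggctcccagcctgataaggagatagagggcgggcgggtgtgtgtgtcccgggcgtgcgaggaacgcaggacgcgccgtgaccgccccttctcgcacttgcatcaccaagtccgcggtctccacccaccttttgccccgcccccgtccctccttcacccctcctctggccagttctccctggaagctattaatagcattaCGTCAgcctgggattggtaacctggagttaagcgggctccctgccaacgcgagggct
Hspa1a, chr17:34972107-34972406, minus strand: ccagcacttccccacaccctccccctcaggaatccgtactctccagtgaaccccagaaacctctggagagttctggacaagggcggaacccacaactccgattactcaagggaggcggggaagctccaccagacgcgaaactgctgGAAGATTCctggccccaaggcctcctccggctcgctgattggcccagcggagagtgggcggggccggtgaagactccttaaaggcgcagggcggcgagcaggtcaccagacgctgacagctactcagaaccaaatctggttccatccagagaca

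TGACG, searched on both strands and contained in the full element TGACGTCA, was found in 11 of the 18 immediate early members with a RefSeq promoter (61.1%), in 9 of 13 heat shock members (69.2%) and in 23.05% of all 27025 genes. GAANNTTC was found in 8 of 13 heat shock members (61.5%), in 2 of 18 immediate early members (11.1%), which were Fosl2 and Jun, and in 9.04% of all genes. TGACATCA was found in 2 of 18 immediate early members, which were Jun and Klf6, and in 4.18% of all genes. The AP-1 site TGANTCA was found in 0 of 18 immediate early members, 2 of 13 heat shock members and 8.97% of all genes. The full element TGACGTCA was found in 2 of 18 immediate early members, 0 of 13 heat shock members and 2.03% of all genes. The CArG box was found in 2 of 18, 0 of 13 and 1.81%, and the TATA box TATAAA in 3 of 18, 0 of 13 and 15.7%. A match describes these letters in this window and does not show that a factor binds there.

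**Figure D4:**
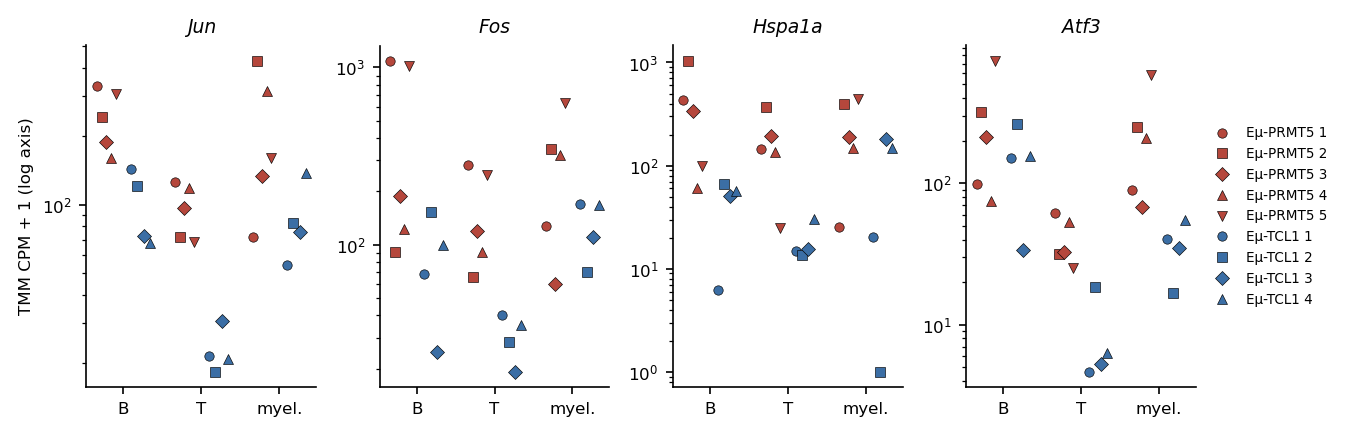
TMM-scaled CPM plus 1 (log axis) of Jun, Fos, Hspa1a and Atf3 in B, T and myeloid cells, 1 point per spleen. Jun and Fos in T cells and Atf3 in T and myeloid cells separate the 5 Eµ-PRMT5 from the 4 Eµ-TCL1 spleens, whereas Hspa1a of myeloid cells overlaps.

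Whether the T cell values came with a particular kind of T cell was looked at in narrower groups of cells. In T cells with a Cd8a or Cd8b1 UMI and no Cd4 UMI the immediate early sum was 3490 ± 813 CPM (SD, n = 5) in Eµ-PRMT5 and 2025 ± 311 CPM (n = 4) in Eµ-TCL1 spleens, without overlap. Heat shock sums in the same cells were 8759 ± 846 and 5859 ± 823 CPM, also without overlap. T cells with a Cd4 UMI had heat shock sums of 8226 to 11386 CPM in 4 Eµ-PRMT5 libraries and 5272 to 9339 CPM in 3 Eµ-TCL1 libraries, which overlapped (the value of 9339 CPM came from 20 cells). So did B cells with an Ighd UMI, at 7744 to 12420 against 4318 to 8140 CPM, whereas B cells without one, at 8682 to 17991 against 5714 to 8577 CPM, did not. In T cells with a Ccl5 UMI the immediate early sums were 3892 ± 849 and 2148 ± 344 CPM, without overlap. T cells without a Ccl5 UMI had 5216 to 7625 CPM in 4 Eµ-PRMT5 libraries and 2418 to 5512 CPM in 2 Eµ-TCL1 libraries, which overlapped. The overlapping values were 5216 CPM in 38 cells of Eµ-PRMT5 spleen 5 and 5512 CPM in 23 cells of Eµ-TCL1 spleen 3. Eµ-TCL1 spleen 1, at 2418 CPM, held 276 such cells. For the same list T cells with a Cd4 UMI had 5621 ± 1389 CPM in the 4 Eµ-PRMT5 libraries that held enough of them and 3517 ± 1146 CPM in 3 Eµ-TCL1 libraries, which overlapped. Eµ-PRMT5 spleens 1 to 4 held 373, 52, 270 and 22 of these cells, at 7156, 4737, 6399 and 4192 CPM. Eµ-TCL1 spleens 1 to 3 held 907, 20 and 23, at 2195, 4145 and 4213 CPM. The overlap thus rested on libraries with few such cells. Myeloid cells rich in S100a8 and S100a9 had 3002 ± 848 and 1847 ± 302 CPM over 4 libraries of each genotype, and overlapped.

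Lists of T cell states were also compared in T cells. Cytotoxic effector genes were higher in Eµ-PRMT5 for 13 of 18 (1 at an unadjusted p below 0.05, where 4.57% of all genes were, median 0.39), while their mean sum was lower, 10939 against 13631 CPM. Leaving out Eµ-PRMT5 spleen 4 gave a cytotoxic median of 0.17, leaving out Eµ-TCL1 spleen 1 one of 0.65, and leaving out Eµ-PRMT5 spleens 4 and 5 one of -0.02. With sex as a covariate it was 0.059. Checkpoint and exhaustion genes were higher for 10 of 13 (1 at that p, median 0.66), and their median became 0.30 when Eµ-TCL1 spleen 4 was left out, 1.51 when spleen 1 of that genotype was, and -0.11 with sex as a covariate. Regulatory T cell genes were higher for 9 of 11 (median 0.33, 2.14 and 0.19 when Eµ-TCL1 spleens 1 and 3 in turn were left out, and -0.20 with sex as a covariate), and naive and memory genes for 5 of 13 (median -0.07, -0.30 to 0.06 with 1 library left out, the highest without Eµ-PRMT5 spleen 4, and 0.28 with sex as a covariate). Without Eµ-PRMT5 spleens 4 and 5 the checkpoint median was 0.38 and the regulatory median 0.80.

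Further stress programs differed less evenly. Integrated stress response genes, which include targets of the transcription factor Atf4, were higher for 14 of 15 in T cells, 5 at an unadjusted p below 0.05, where 4.57% of all genes were (median 0.53, and 0.33 without Eµ-PRMT5 spleen 4), and for 8 of 15 in B cells (median 0.08). The B cell median turned to -0.05 without Eµ-TCL1 spleen 2 and to -0.084 with sex as a covariate, and was 0.16 without Eµ-TCL1 spleen 4. Ppp1r15a, which restores translation after stress, and Atf4 itself did not overlap between the groups in T cells, with log2 differences of 1.28 ± 0.29 and 0.80 ± 0.19. NF-kB feedback genes were higher for 12 of 15 in T cells and 13 of 15 in B cells (medians 0.44 and 0.57). The B cell median was 0.30 without Eµ-PRMT5 spleen 1, and the T cell median was 0.25 without Eµ-PRMT5 spleens 4 and 5. Cd83, a membrane protein of activated lymphocytes and antigen-presenting cells, had log2 differences of 1.18, 2.33 and 3.75 in B, T and myeloid cells, and free RNA could give up to 81.8% of its T cell level. In the myeloid class Cd83 ran with the Cd74 and dendritic cell marker levels of Eµ-PRMT5 spleen 5 given above, and their part in it was not tested.

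Nucleolar ribosome biogenesis genes, whose products assemble ribosomal subunits, lay apart between the groups in B cells. In B cells 29 of 29 were higher in Eµ-PRMT5, 19 at an unadjusted p below 0.05, where 8.39% of all genes were, and 12 without overlap, where 3.23% were (median 0.63). The sums were 4303, 3681, 4782, 5997 and 4029 CPM against 2927, 2931, 2621 and 2514 CPM and did not overlap. Nop58, a core protein of small nucleolar ribonucleoproteins, lay at 236, 163, 192, 297 and 206 CPM in Eµ-PRMT5 B cells and at 108, 104, 100 and 109 CPM in Eµ-TCL1 B cells (log2 difference 1.05 ± 0.20, adjusted p = 0.183, edgeR). In T cells 28 of 29 were higher but 5 at that p, where 4.57% of all genes were (median 0.31), and in myeloid cells 23 of 28, with 0 at that p (median 0.25). The T cell median was 0.14 without Eµ-PRMT5 spleen 5, 0.075 without Eµ-PRMT5 spleens 4 and 5, and 0.66 with sex as a covariate, a fit in which the B cell median was 0.56. The myeloid median was 0.14 without Eµ-PRMT5 spleen 4 and -0.057 without Eµ-PRMT5 spleens 4 and 5. All 29 had a smaller log2 difference in T cells than in B cells by interaction, with 0 at an unadjusted p below 0.05, where 2.97% of all genes were.

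In B and T cells the direction of the mitosis genes turned without Eµ-PRMT5 spleen 4, and in B cells also with sex as a covariate. Mitosis genes of its B cells summed to 1726 CPM, whereas the other 4 Eµ-PRMT5 mice had 52.7 to 142 CPM and the Eµ-TCL1 mice 72.4 to 723 CPM. Their median log2 difference was 0.57 with that spleen, -2.14 without it and -0.38 with sex as a covariate. In T cells the same values were 0.49, -0.51 and 0.19. Leaving out Eµ-TCL1 spleen 1 gave 1.13 in B cells and 1.36 in T cells. In myeloid cells 20 of 20 mitosis genes were lower in Eµ-PRMT5, 5 at an unadjusted p below 0.05, against 0.689% of all genes in that direction (median -0.73, -0.42 without Eµ-TCL1 spleen 3, and -0.93 when Eµ-PRMT5 spleen 4 was left out). Granulocyte-monocyte progenitor markers of the myeloid class summed to 1428, 1130, 890, 3841 and 1295 CPM in Eµ-PRMT5 mice and to 3038, 2917, 4052 and 1396 CPM in Eµ-TCL1 mice, and their part in the mitosis values was not tested. DNA replication genes of B cells went from a median of 0.89 to -0.08 without Eµ-PRMT5 spleen 4 and to 0.27 with sex as a covariate.

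Interferon response and antigen presentation genes were less even. Interferon genes were lower for 19 of 27 in B cells (6 at an unadjusted p below 0.05, where 6.3% of all genes were, and 2 without overlap, where 2.4% were) and for 23 of 31 in T cells (1 at that p, where 2.7% of all genes were, and 0 without overlap, where 1.17% were). The B cell median was -0.49 (-0.82 to -0.28 with 1 library left out). The T cell median was -0.28 and became 0.13 without Eµ-TCL1 spleen 3 and 0.071 with sex as a covariate. MHC class II genes of myeloid cells were higher for 10 of 10 (median 1.41), but their sums were 2915, 2580, 1596, 10068 and 29288 CPM in Eµ-PRMT5 mice and 5492, 4945, 948 and 1896 CPM in Eµ-TCL1 mice. The median was 0.39 without Eµ-PRMT5 spleen 5 and -0.53 without Eµ-PRMT5 spleens 4 and 5. In T cells 10 of 10 MHC class II genes were higher (median 0.72). This T cell median was 0.47 when Eµ-PRMT5 spleen 1 was left out, 1.09 when Eµ-TCL1 spleen 2 was, and 0.22 with sex as a covariate. Cd74, their chaperone, could come from free RNA for up to 88.0% of its T cell level. Azurophil and secondary granule genes of myeloid cells had 0 members below all Eµ-TCL1 libraries, against 0.203% of all genes.

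Whether a genotype difference was unlike in 2 classes was tested by an interaction term with the library as a block. Between T and B cells 3 of 12410 genes were called, or 0.0242%, and between myeloid and B cells 1 of 12410, or 0.00806%. Eps8l1, which links receptors to the actin cytoskeleton, was called in both. In B cells it lay at 6.78, 5.59, 3.77, 0.501 and 5.06 CPM in Eµ-PRMT5 and at 0, 0, 0.0891 and 0 CPM in Eµ-TCL1 spleens, which is 141 UMIs against 1 UMI and a ratio of 283 with a counting interval of 50.1 to 11273. Counting intervals, here and for Cxcr3 below, pool the UMIs of a group and leave out the spread between mice. In T cells Eps8l1 lay at 11.7, 20.9, 3.53, 3.89 and 10.2 CPM against 3.57, 10.2, 9.49 and 6.41 CPM and overlapped. The Eps8l1 difference was smaller in T cells, with a T minus B cell value of -7.10 ± 0.88 (adjusted p = 0.00222, edgeR), and in myeloid cells, with a myeloid minus B cell value of -7.54 ± 0.98 (adjusted p = 0.00462, edgeR).

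The other called genes of the T cell interaction were Cxcr3, a chemokine receptor of effector T cells and of some B cells, and Golm1, a Golgi membrane protein. Cxcr3 lay at 110, 184, 112, 32.4 and 50.5 CPM in Eµ-PRMT5 T cells and at 84.7, 107, 54.4 and 129 CPM in Eµ-TCL1 T cells, which overlapped. In B cells it had 108 UMIs in Eµ-PRMT5 and 13 in Eµ-TCL1 spleens, a ratio of 16.7 with a counting interval of 9.36 to 32.4. The log2 difference of T minus B cells was -3.77 ± 0.61 (adjusted p = 0.0346, edgeR). Golm1 lay at 8.07, 9.87, 4.76, 11.2 and 5.36 CPM in Eµ-PRMT5 B cells and at 0.549, 1.03, 0.980 and 2.22 CPM in Eµ-TCL1 B cells, and its difference of T minus B cells was -3.01 ± 0.49 (adjusted p = 0.0346, edgeR). T cell markers summed to 164 to 597 CPM in Eµ-PRMT5 B cells and 316 to 779 CPM in Eµ-TCL1 B cells, most of it Cd2. Cd8b1 lay at 0.347, 4.83, 1.62, 0.0662 and 4.31 CPM in Eµ-PRMT5 B cells and at 0.133, 0.390, 0.660 and 0 CPM in Eµ-TCL1 B cells, and the part of T cell RNA in the Cxcr3 result was not tested. Cd28, the co-stimulatory receptor of T cells, and Gpnmb, a glycoprotein of macrophages, had the next smallest p between T and B cells, and Mphosph9, Prdm1 and H6pd between myeloid and B cells. With sex as a covariate no gene was called in either interaction.

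Last, the receptor genes of the T cells were compared, since spleens of mice with leukemia often hold expanded T cells. The leading T cell receptor beta V gene took 13.3% of Trbv UMIs in Eµ-PRMT5 spleen 1 (Trbv13-2), 31.3% in spleen 2 (Trbv31), 13.9% in spleen 3 (Trbv12-2), 14.2% in spleen 4 (Trbv1) and 85.6% in spleen 5 (Trbv12-1). In Eµ-TCL1 spleens it took 82.0% (Trbv17), 57.1% (Trbv16), 72.9% (Trbv13-2) and 23.3% (Trbv19) in spleens 1 to 4. The leading Trbv gene was a different one in each of these spleens except that Trbv13-2 led in Eµ-PRMT5 spleen 1 and Eµ-TCL1 spleen 3. In Eµ-PRMT5 spleen 5 Trbc1 made up 0.637% of Trbc UMIs, against 8.73% to 33.3% elsewhere, and Trav13-1 took 67.0% of Trav UMIs. Leading Trav genes took 5.13% to 67.0% in Eµ-PRMT5 and 22.1% to 68.2% in Eµ-TCL1 T cells.

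B cells were dominated by 1 heavy-chain V gene in 5 spleens. Ighv12-3 took 94.0% of Ighv UMIs in Eµ-PRMT5 spleen 4, and 94.3% and 99.0% in Eµ-TCL1 spleens 2 and 4. Ighv1-55 took 69.8% in Eµ-PRMT5 spleen 5 and 99.6% in Eµ-TCL1 spleen 1, and in both the leading light-chain gene was Igkv12-89. Leading Ighv genes took 32.1% to 40.7% in Eµ-PRMT5 spleens 1 to 3 and 37.5% in Eµ-TCL1 spleen 3. Ighg2c, a class-switched heavy-chain constant gene, had 2712 UMIs in Eµ-PRMT5 and 2 UMIs in Eµ-TCL1 B cells, and Eµ-PRMT5 spleens 1 to 4 held 125, 19.1, 141 and 5.51 CPM and spleen 5 none (adjusted p = 0.183, edgeR).

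**Figure D5:**
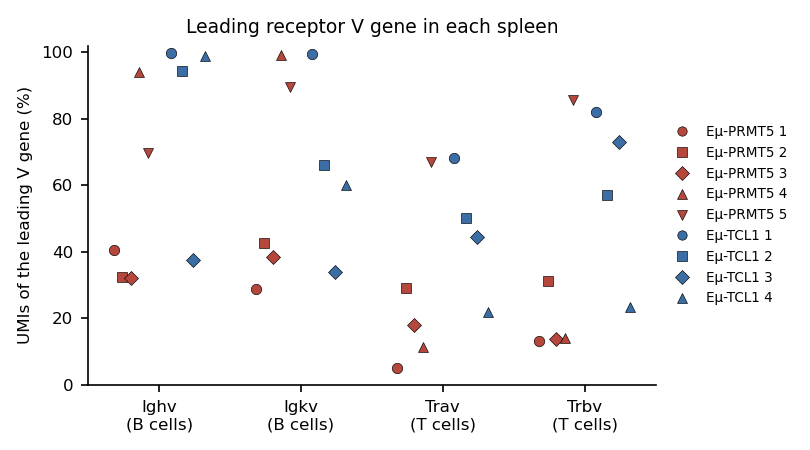
Share of UMIs (%) of the leading V gene among all Ighv and Igkv genes of B cells and all Trav and Trbv genes of T cells, 1 point per spleen. The leading Trbv gene takes 85.6% in Eµ-PRMT5 spleen 5 and 13.3% to 31.3% in the other Eµ-PRMT5 spleens, and 23.3% to 82.0% in Eµ-TCL1 spleens.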

How the data were processed

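Cells of 9 spleens were measured by 10x Genomics 3′ v2 single-cell RNA-seq. The authors deposited UMI counts per gene and barcode, and the values used here are those counts, not normalized. The submitters' processing notes name Cell Ranger 2.0.1 and Seurat 2.2.1, while the matrix headers give 3.1.0. A barcode was kept if it held 1500 UMIs or more, 200 genes or more and no more than 10% mitochondrial UMIs, and was then gated by lineage UMIs. Counts were summed per library and class and compared by edgeR 4.0.16 (quasi-likelihood test, TMM, filterByExpr, Benjamini-Hochberg over all genes, called below 0.05), with DESeq2 1.42.0 as an alternative. The interaction was fitted over the same sums with the library as a block. The class fits were tested on simulated counts with the dispersions of the real fits. Of genes given a log2 change of 2, 59.8% were called in B, 78.8% in T and 82.0% in myeloid cells. At a log2 change of 3 these were 78.6%, 86.1% and 89.2%, so real changes could be missed, most often in B cells. Shares were compared over libraries by exact permutation (scipy 1.17.1). Each library is a separate mouse, so p-values of the class fits and shares measure the spread between mice. For the interaction they measure how far the difference between classes varies from mouse to mouse. Free RNA limits come from barcodes with at most 100 UMIs.

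Named genes were, where fewer than 10 were called in a class, the genes of smallest p, up to 6 in each direction at a mean of at least 20 CPM in a group, the genes with the 5 smallest p of each interaction, and members of the gene lists. The members and lists were chosen with earlier results of these data known. Ighg2c, named for its counts, was chosen after its values were seen. Scrublet marked 0% to 3.72% of cells, under 0.5% in 6 of these libraries, so it did not work there and doublets were not removed.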

Additional observations from a re-analysis of the deposited data

Results flagged for a closer look

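Single libraries stood far from the rest of their group in 10 of 98 groups of 4 or 5 libraries tested by Dixon's criterion, which flags about 1 in 20 by chance. Eµ-PRMT5 spleen 4 was the highest of its group for the share of myeloid cells among kept cells (27.05%), of B cells with Mki67 (14.04%), of myeloid cells with Mpo (8.51%) and of myeloid cells with C1qb (15.6%). Eµ-TCL1 spleen 1 was the highest of its group for T cells with Cd4 (19.01%) and the lowest for T cells with Ccl5 (84.2%). Tfrc in B cells was highest in Eµ-PRMT5 spleen 3 (28.4 CPM), and Pgpep1 in B cells was lowest in Eµ-PRMT5 spleen 1 (4.52 CPM). Klf4 in T cells was highest in Eµ-PRMT5 spleen 1 (104 CPM), and Fosb in myeloid cells was highest in Eµ-PRMT5 spleen 5 (139 CPM).

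The genotype difference was unlike between classes, by the edgeR interaction test, for Eps8l1 (T minus B cells -7.10, myeloid minus B cells -7.54), Cxcr3 (T minus B cells -3.77) and Golm1 (T minus B cells -3.01). The Cxcr3 call was lost without any of Eµ-PRMT5 spleens 1 and 3 and Eµ-TCL1 spleens 1 to 4, and the Golm1 call without those or Eµ-PRMT5 spleen 2. The Eps8l1 call between T and B cells was lost without Eµ-TCL1 spleen 2 (adjusted p = 0.0748, edgeR). Its call between myeloid and B cells was lost without Eµ-PRMT5 spleen 1 or any of Eµ-TCL1 spleens 1, 2 and 4 (adjusted p = 0.0510 to 0.163, edgeR). All 4 calls were lost with sex as a covariate (adjusted p = 0.117 and 0.147 for Eps8l1, 0.877 for Cxcr3 and 0.384 for Golm1, edgeR).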

How the results depend on the processing

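The genes named for the smallest p of a class or interaction did not reverse under the alternatives run, with 899 values on the same side of the threshold, 49 newly called and 34 no longer called; other named list members were not included. In B cells 1 gene was called, and 444 by DESeq2, 904 without Eµ-PRMT5 spleens 4 and 5 together (423 higher, chosen after seeing the data), 3 with all 13 spleens in the fit, 0 with a 5% mitochondrial limit, a minimum of 3000 UMIs or sex as a covariate, and 0 to 5 with 1 library left out. In T cells 0 were called, and 72 by DESeq2, 22 without Eµ-PRMT5 spleens 4 and 5 (21 higher), 2 with all 13 spleens, 1 at 3000 UMIs, 1 with no filter, 4 with sex as a covariate (0 higher), and 0 to 4 with 1 library left out. In myeloid cells DESeq2 called 2. For T against B cells 0 were called with sex as a covariate and 0 to 24 with 1 library left out, 24 without Eµ-PRMT5 spleen 5. For myeloid against B cells it was 0 with sex and 0 to 6. The cause was not tested. The difference in the share of T cells with Cd4 reversed to -0.848 percentage points at 3000 UMIs (-0.495 to 5.70 with 1 library left out). The myeloid share reversed to -0.607 at 5% mitochondrial UMIs and -0.456 with thinned gates (-3.85 to 2.95). The ranges with 1 library left out were -1.81 to 1.70 for Mki67, -0.778 to 3.12 for C1qb, -2.40 to 0.305 for Mpo, -20.4 to -7.86 for Ccl5, -17.9 to -6.63 for Cd8b1, 0.347 to 0.794 for Foxp3 and -23.5 to -9.96 for Ltf.

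Replicate numbers follow accession order and are not known to pair mice. With the replicate block 1 gene was called in B cells, Ighg2c, and 0 in T or myeloid cells. Deviations of same-numbered spleens correlated at -0.066 to 0.180 in B cells, -0.295 to 0.224 in T cells and -0.295 to 0.224 in myeloid cells. With 36 to 76 myeloid cells in 3 spleens, low genes of that class are the least precise.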
